A study of Mus musculus with 24 samples.

Results

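The 8 features described here, out of 4408 in the count table, are the gene features Gnao1, Cd44, Gm15662, Hacd1, Xylb, Slc22a14, Zfp185 and Gtf2i. All 8 were found by name in all 24 small RNA libraries, which fall into 8 groups. They were chosen by their measured fold changes between cultures with the inhibitor GW4869 and cultures with its vehicle DMSO, so every value of these 8 that uses a DMSO or GW4869 library is a description and was not tested. The libraries came from C57BL/6 mouse CD4+ T cells (lymph nodes and spleen) and from the extracellular vesicles (EVs) in their culture medium, with 3 libraries in each group. The resting cultures went through 2 days of stimulation and 1 day of expansion before 2 days of rest in medium with IL2. The stimulated cultures had 3 days with antibodies on the plate, anti-CD3 at 2 µg/ml together with 5 µg/ml of anti-CD28. DMSO and GW4869 cultures were stimulated for 3 days too, with no antibody dose and no dose of GW4869 in the labels. EVs were isolated from the medium of each kind of culture. No label ties the 3 libraries of a group to separate mice or cultures, so p-values measure the spread between libraries, which may be technical.

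GW4869 inhibits neutral sphingomyelinase, which makes ceramide from sphingomyelin in membranes and has a role in how some vesicles bud. Small RNA libraries hold short RNAs, and a gene's count here is the number of short fragments counted for that gene. It is not a level of the mRNA or of the protein, and the position of the fragments within a gene was not analysed here. The 8 genes share no pathway. Gnao1 encodes the alpha subunit of the G protein Go, which passes signals from receptors at the membrane and is best known in neurons. Cd44 encodes a receptor for hyaluronan that rises on T cells after activation and serves as a marker of activated and memory cells. Hacd1 encodes a dehydratase of very long chain fatty acid elongation. Xylb encodes xylulokinase, which feeds xylulose into the pentose phosphate pathway, and Slc22a14 a transporter of the SLC22 family. Zfp185 encodes a LIM domain protein of the actin cytoskeleton. Gtf2i encodes TFII-I, a transcription factor that is also a target of Bruton's kinase. Gm15662 is listed in the files as an unprocessed pseudogene and is given by name only.

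In GENCODE M21 (GRCm38, counted from 1) Gnao1 lies on chromosome 8 from 93809966 to 93969388, plus strand, and Cd44 on chromosome 2 from 102811141 to 102901665, minus strand. Hacd1 lies on chromosome 2 from 13850282 to 14056135, minus strand, Zfp185 on chromosome X from 72987339 to 73031543, plus strand, and Gtf2i on chromosome 5 from 134237834 to 134314760, minus strand. Xylb (chromosome 9, 119357381 to 119393797, plus strand) and Slc22a14 (119169455 to 119365553, minus strand) overlap over 8173 bases. The overlap exists only for 1 of the 4 Slc22a14 transcripts of that annotation. In RefSeq (GRCm38.p6) Slc22a14 spans 20978 bases, from 119169453 to 119190430, and does not reach Xylb. The Hacd1 model also differs between the annotations, with 205854 bases in GENCODE and 29205 in RefSeq. One other feature of the table lies inside a member: the miRNA Mir2137 sits in an intron of Zfp185 on the same strand (chromosome X, 72992079 to 72992144).

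The Mir2137 sequences are shown because reads of this miRNA can be counted for Zfp185 as well. They are RefSeq's, on GRCm38.p6, plus strand, 5′ to 3′. The mature RNA (chrX:72992113-72992133) has its seed, bases 2 to 8, in capitals, and the hairpin (chrX:72992079-72992144) has the mature RNA in capitals.
mmu-miR-2137: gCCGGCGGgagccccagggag
Mir2137 hairpin: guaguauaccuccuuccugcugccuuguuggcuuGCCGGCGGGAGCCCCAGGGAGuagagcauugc
Of the 21 bases of the mature RNA, 18 are G or C, and no other mature mouse miRNA in the RefSeq table has this seed.

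Library totals ran from 1290918 counts (a GW4869 EV library) to 3231626 (a resting EV library). Levels are CPM, the count per 1000000 counts of a library after scaling by trimmed mean of M values (TMM), and levels of different genes are not compared because gene lengths differ. Markers of T lymphocytes were present in all groups, with Mir142 between 23400 ± 5900 CPM (SD, n = 3) in GW4869 EVs and 230000 ± 18700 CPM in resting cells. Of the 15 listed, 9 stood in the table, with Cd3e and Ptprc among them and Cd4 not. None of the 5 listed myeloid and none of the 5 muscle markers did. Markers of other cell types were present at lower levels and some moved with the groups. Of the 4 platelet and endothelial markers, 3 (Mir126a, Mir126b and Pecam1) stood in the table. Their sum was 311 to 342 CPM in resting EVs and 177 to 181 CPM in stimulated EVs. It was 283 to 334 CPM in DMSO cells and 101 to 190 CPM in DMSO EVs. Of 7 epithelial markers, 2 (Mir200c and Mir141) were present, at 120 to 145 CPM in DMSO cells and 43.4 to 83.7 CPM in DMSO EVs. Mir451a, of red cells, went from 9.68 to 31.4 CPM in resting cells to 58.4 to 83.5 CPM in stimulated cells, and from 31.1 to 53.6 CPM in DMSO EVs to 13.5 to 27.2 CPM in GW4869 EVs. Mir192, listed for liver, went from 163 to 182 CPM in resting cells to 30.3 to 48.7 CPM in stimulated cells. The sum of Mir128-1 and Mir128-2, listed as neural, went from 93.4 to 153 CPM in DMSO EVs to 82 to 87.8 CPM in GW4869 EVs. The summed T lymphocyte markers moved with the groups, from 241000 to 270000 CPM in resting cells to 79200 to 106000 CPM in stimulated cells. In EVs the sum went from 35500 to 69700 CPM with DMSO to 21000 to 33000 CPM with GW4869. Mir142 made up most of it, at 230000 ± 18700 CPM in resting and 77000 ± 12500 CPM in stimulated cells. Single markers differed: between these cells Mir150 fell from 24100 ± 2490 to 1560 ± 302 CPM, and Mir155 rose from 3750 ± 308 to 11800 ± 770 CPM. The sum of Pax5 and Ebf1, 2 of 6 listed B cell markers, was 56.2 to 90.7 CPM in DMSO EVs and 122 to 196 CPM in GW4869 EVs. In cells both sums overlapped between DMSO (87000 to 118000 and 23.7 to 29.2 CPM) and GW4869 (60600 to 107000 and 21.1 to 24.3 CPM). Their part in the members' values was not tested. Replicate 1 of the DMSO EVs stood apart for part of the features: 15.9% of all features were over 1.5 times the mean of the other 2 libraries, and the median of all features was 0.949. The ratio was 1.96 for Zfp185, 1.88 for Cd44, 1.67 for Gm15662, 1.46 for Gnao1 and 1.33 for Hacd1. For Gtf2i, Slc22a14 and Xylb it was 1.08, 0.901 and 0.801. Lines of repeated names in the table combine 2 versions of the values of the resting and stimulated libraries with 2 versions of those of the DMSO and GW4869 libraries (4 lines each for Dancr, Pcdha11 and Pde2a), which is what joining 2 separately made tables gives. Differences between the 2 sets of cultures cannot be told apart from a possible difference in how they were counted, cultured or sequenced.

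Gnao1 fragments were highest in GW4869 cells. All libraries of other groups stood at 44.2 CPM or below, with DMSO EVs next by mean. The 3 GW4869 cell libraries stood at 166, 155 and 123 CPM (307, 317 and 268 counts), and the 3 DMSO cell libraries at 11, 6.81 and 18.6 CPM (19, 12 and 28 counts). Every GW4869 cell library was above every other library of the series. The log2 fold of GW4869 against DMSO cells was 3.62 ± 0.30 (SE), or 12.3-fold, the highest of all 4408 features in that contrast. In EVs the values were 21.9, 28.9 and 31.8 CPM with GW4869 and 44.2, 28.3 and 32.3 CPM with DMSO, which overlap (log2 fold -0.35 ± 0.27, and -0.14 ± 0.29 without DMSO EV replicate 1). The EV to cell ratio of Gnao1 thus had the lowest fold of all features between GW4869 and DMSO, at -3.96 ± 0.40, and at -3.76 ± 0.40 without that library.

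In cultures without DMSO or GW4869, Gnao1 was flat with TMM scaling. With library totals its log2 fold of stimulated against resting was 0.98 in cells and 1.23 in EVs. The CPM that follow are with TMM. Resting cells gave 19.0, 20.4 and 13.2 CPM, resting EVs 17.4, 11.1 and 17.8, stimulated cells 17.8, 17.9 and 23.0, and stimulated EVs 16.2, 19.4 and 13.8. The 4 ranges overlap or adjoin. The group order was GW4869 cells, DMSO EVs, GW4869 EVs, stimulated cells, resting cells, stimulated EVs, resting EVs and DMSO cells, and only the step from the first to the second place had no overlap between neighbours. Against the stimulated cells, which had neither vehicle nor inhibitor, the GW4869 cells were higher by a log2 fold of 2.91 ± 0.28.

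**Figure D1:**
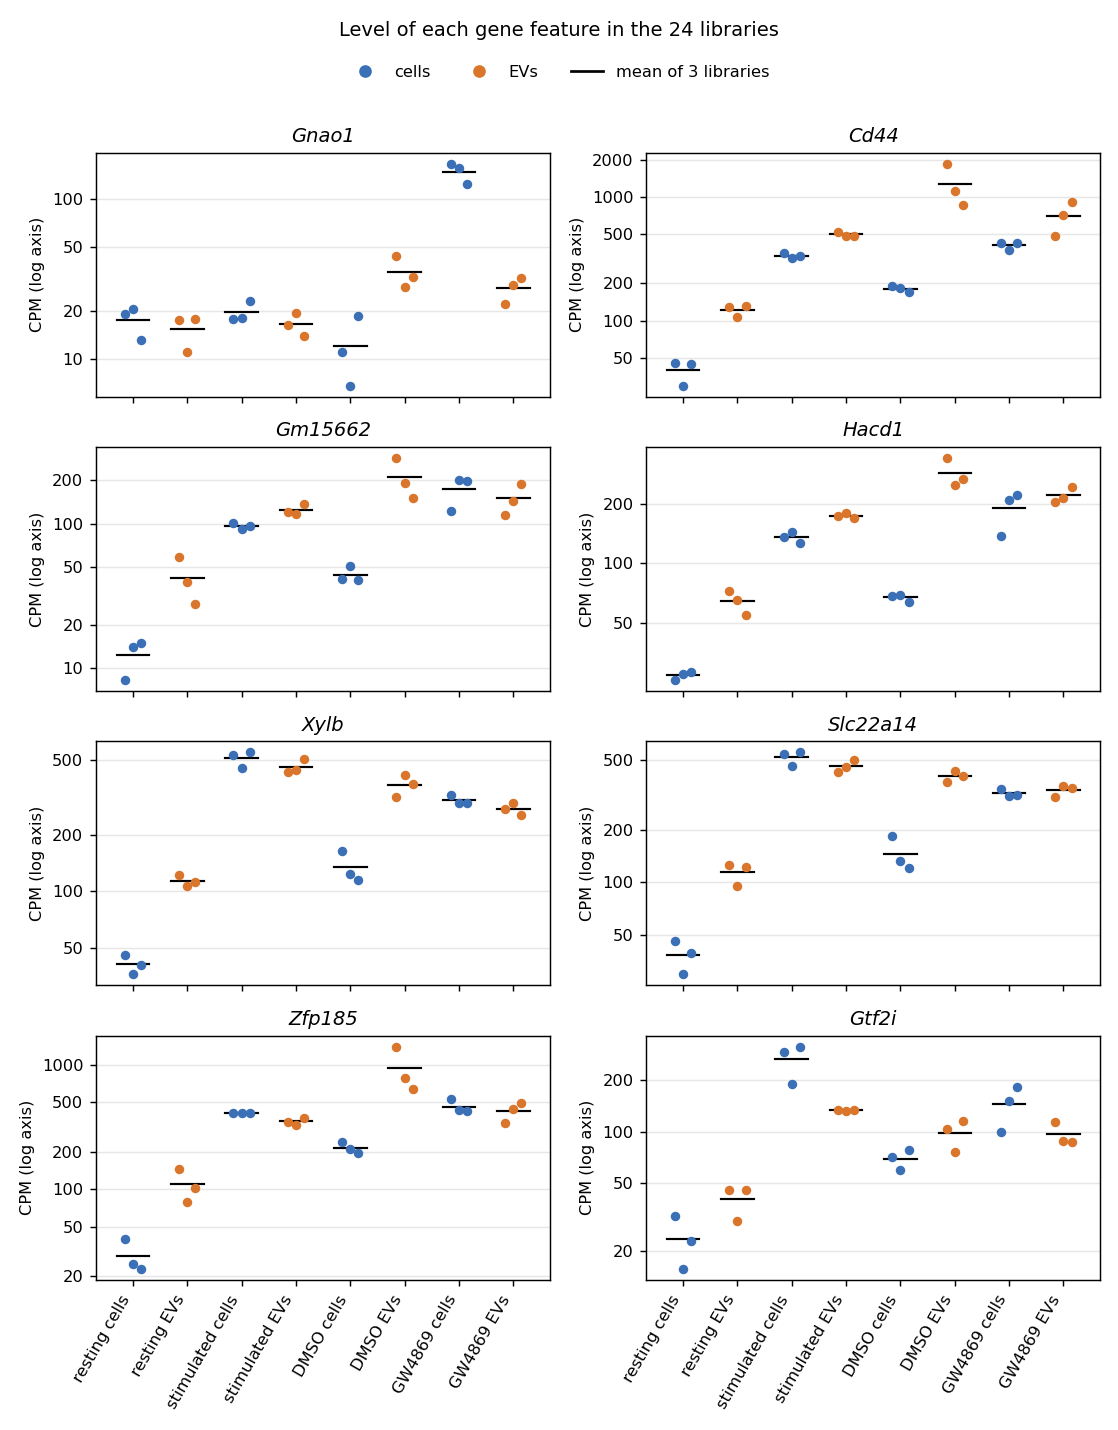
CPM (TMM scaling, log axis) of the 8 gene features in each of the 24 libraries, by group: points are libraries, blue for cells and orange for EVs, and bars are means of 3 libraries. Gnao1 stands at 123 to 166 CPM in GW4869 cells and at 44.2 CPM or below elsewhere, whereas the other 7 features are lowest in resting cells.

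Cd44 fragments were most abundant in DMSO EVs, at 1870, 1120 and 868 CPM, followed by GW4869 EVs at 489, 715 and 919 CPM. The highest GW4869 EV library lay above the lowest DMSO EV library, so the groups overlap. The log2 fold of GW4869 against DMSO EVs was -0.86 ± 0.23, and -0.49 ± 0.21 without DMSO EV replicate 1. Cells went the other way: 424, 373 and 429 CPM with GW4869 against 191, 183 and 172 CPM with DMSO, a log2 fold of 1.16 ± 0.23 with no overlap. Stimulated cells lay between them, at 351, 322 and 331 CPM. Stimulated EVs stood at 526, 485 and 489 CPM, resting EVs at 129, 108 and 131 and resting cells at 45.5, 29.8 and 44.9. Of the neighbours in the order of groups, the first 3 (DMSO, GW4869 and stimulated EVs) overlap one with the next, and the rest do not. The fold of the EV to cell ratio between GW4869 and DMSO was -2.03 ± 0.33, and -1.65 ± 0.29 without DMSO EV replicate 1.

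Gm15662 and Hacd1 followed the same order at the ends, highest in DMSO EVs and lowest in resting cells. Gm15662 had 123, 202 and 197 CPM in GW4869 cells and 41.7, 51.1 and 40.5 CPM in DMSO cells, a log2 fold of 1.97 ± 0.28 and the 4th highest of all features. Its EV values were 115, 145 and 189 CPM with GW4869 and 286, 192 and 151 CPM with DMSO, which overlap (-0.49 ± 0.26, and -0.19 ± 0.26 without DMSO EV replicate 1). In the remaining groups Gm15662 stood at 96.8 ± 5.11 CPM in stimulated cells, 125 ± 11.3 in stimulated EVs, 41.9 ± 15.5 in resting EVs and 12.4 ± 3.64 in resting cells (SD, n = 3). Hacd1, the fatty acid elongation gene, had 137, 208 and 221 CPM in GW4869 cells and 68.3, 69.3 and 63.7 CPM in DMSO cells, a log2 fold of 1.49 ± 0.19. Its GW4869 EV libraries (204, 214 and 243 CPM) were all below its DMSO EV libraries (340, 248 and 265 CPM), by a small margin and with a log2 fold of -0.37 ± 0.18 (-0.22 ± 0.19 without DMSO EV replicate 1). Hacd1 stood at 135 ± 8.09 CPM in stimulated cells, 174 ± 4.58 in stimulated EVs, 63.9 ± 8.82 in resting EVs and 27.1 ± 1.3 in resting cells. For both features replicate 1 of the GW4869 cells was lower than the other 2 libraries of its group.

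Xylb and Slc22a14 gave nearly the same counts and are not separate evidence. The Slc22a14 count was 82.6% to 135% of the Xylb count over the 24 libraries and above it in 19 of them. It was closest to 100% in stimulated cells (101 ± 0.875%) and stimulated EVs (101 ± 1.77%) and farthest in GW4869 EVs (123 ± 11.3%, SD, n = 3). The deposited counts do not say which reads were counted for both genes. Xylb stood at 325, 297 and 297 CPM in GW4869 cells and 164, 123 and 115 CPM in DMSO cells, a log2 fold of 1.19 ± 0.17, and the fold of Slc22a14 was 1.15 ± 0.19. In EVs Xylb had 273, 295 and 256 CPM with GW4869 and 316, 414 and 375 with DMSO (-0.42 ± 0.17), and Slc22a14 had 307, 356 and 345 against 376, 431 and 404 CPM. The EV libraries of Slc22a14 did not overlap, but its log2 fold of -0.26 ± 0.18 became 0.06 with library totals in place of TMM. Unlike Cd44, Xylb was highest in stimulated cells (530, 452 and 549 CPM) and stimulated EVs (430, 442 and 505 CPM), which overlap. It was lowest in resting cells (45.5, 36.0 and 40.5 CPM), with resting EVs at 122, 106 and 112 CPM.

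**Figure D2:**
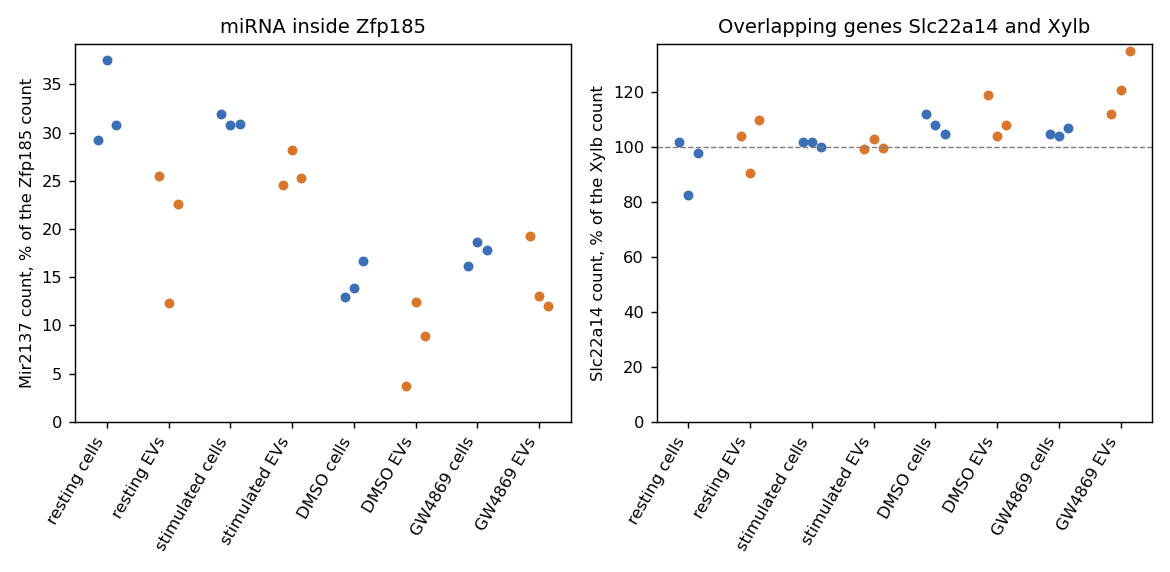
Left, the Mir2137 count as a percentage of the Zfp185 count, and right, the Slc22a14 count as a percentage of the Xylb count, in each of the 24 libraries by group (blue cells, orange EVs, dashed line at 100%). Mir2137 reaches 37.5% of the Zfp185 count in a resting cell library and 3.72% in DMSO EV replicate 1, and Slc22a14 stays between 82.6% and 135% of Xylb.

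Zfp185, the LIM domain gene, had the largest EV fold among the 8. Its DMSO EV libraries stood at 1390, 781 and 635 CPM and its GW4869 EV libraries at 337, 439 and 490 CPM, without overlap. The log2 fold was -1.15 ± 0.25, and -0.75 ± 0.22 without DMSO EV replicate 1. In cells Zfp185 had 527, 429 and 428 CPM with GW4869 and 240, 212 and 195 CPM with DMSO, a log2 fold of 1.10 ± 0.25. Stimulated cells stood at 412 ± 0.353 CPM, stimulated EVs at 351 ± 23.2, resting EVs at 109 ± 33.6 and resting cells at 29.2 ± 9.13 (SD, n = 3). The count of the miRNA inside it, Mir2137, equalled 31.2 ± 0.61% of the Zfp185 count in stimulated cells. This was 14.6 ± 1.89% in DMSO cells and 8.32 ± 4.35% in DMSO EVs. The counts do not say whether Mir2137 reads were counted for Zfp185 too. With the Mir2137 count taken off, the fold of GW4869 against DMSO was -1.26 ± 0.26 in EVs and 1.05 ± 0.26 in cells. Mir2137 itself had a log2 fold of 1.37 ± 0.28 in cells, from 31.1 ± 1.49 to 80.5 ± 4.69 CPM, and of -0.17 ± 0.27 in EVs, where the libraries overlap. The EV difference of Zfp185 was thus as large with the Mir2137 count taken off.

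Gtf2i, the TFII-I gene, differed least. GW4869 cells had 100, 152 and 182 CPM and DMSO cells 71.2, 59.6 and 78.3 CPM, a log2 fold of 1.06 ± 0.25 without overlap. EVs had 114, 88.9 and 87.3 CPM with GW4869 and 104, 76.6 and 115 with DMSO, with overlap and a log2 fold of -0.03 ± 0.25. Its highest values were those of stimulated cells, at 295, 190 and 315 CPM, above all 3 GW4869 cell libraries. Stimulated EVs were close together at 134, 132 and 134 CPM, and resting EVs (45.8, 29.9 and 45.5 CPM) overlapped with resting cells (32.2, 15.7 and 22.9 CPM).

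Side by side, all 8 features were higher in GW4869 than in DMSO cells without overlap of libraries, with log2 folds of 1.06 to 3.62 and a median of 1.18. Over all features, 12.7% were higher in that way and the median fold was -0.01. In EVs all 8 folds were below 0 (-1.15 to -0.03, median -0.40), although Gtf2i had 0.01 without DMSO EV replicate 1 and 0.30 without replicate 3 of every group. With library totals, which moved the median of all features by 0.32 in this contrast, Gtf2i had 0.26, Slc22a14 0.06, Hacd1 -0.07 and Xylb -0.09, and the median of the 8 was -0.08. With TMM scaling, libraries did not overlap for 4 of the 8 (Hacd1, Xylb, Slc22a14 and Zfp185). Over all features 16.1% were lower in EVs without overlap, and the median was -0.07. The 4 were lower in EVs and higher in cells at once, as were 2.43% of all features. The folds of the EV to cell ratio ran from -3.96 to -1.09, with a median of -1.94 against -0.11 over all features. Without DMSO EV replicate 1 the median was -1.71, with Zfp185 at -1.84 (from -2.24), Gm15662 at -2.16 (from -2.46) and Hacd1 at -1.71 (from -1.86). These contrasts chose the features, so the counts describe them and support nothing.

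The stimulated cultures were set beside the DMSO and GW4869 cultures as well. They belong to the other of the 2 sets described above, which no label names. Differences cannot be told apart from a possible difference in how the sets were counted, cultured or sequenced. All 8 folds of DMSO against stimulated cells were below 0 (-1.94 to -0.71), 7 of them without overlap, where 25.7% of all features were lower in that way. GW4869 cells were above stimulated cells without overlap for Gnao1 (2.91 ± 0.28), Gm15662 (0.85 ± 0.26), Cd44 (0.29 ± 0.23) and Zfp185 (0.16 ± 0.24), where 17.3% of all features were higher in that way. They were below them without overlap for Gtf2i (-0.88 ± 0.25), Xylb (-0.74 ± 0.17) and Slc22a14 (-0.68 ± 0.18), where 21.4% of all features were lower in that way. So for 7 features the DMSO cells stood lower than stimulated and GW4869 cells alike, and Gnao1 stood 7.52 times higher in GW4869 than in stimulated cells. Zfp185 with the Mir2137 count taken off had -0.62 ± 0.26 for DMSO and 0.43 ± 0.25 for GW4869 against stimulated cells. In EVs, DMSO libraries were above stimulated ones without overlap for Gnao1, Cd44, Gm15662, Hacd1 and Zfp185 (0.71 to 1.41), where 14.9% of all features were. Without DMSO EV replicate 1 these folds were 0.45 (Gm15662, from 0.74) to 1.01 (Zfp185, from 1.41), with Cd44 at 0.99 (from 1.36). They were below them for Xylb and Gtf2i, where 15% of all features were. GW4869 EVs were above stimulated EVs without overlap for Gnao1 (0.74 ± 0.27) and Hacd1 (0.34 ± 0.18), where 23.8% of all features were. They were below them for Xylb, Slc22a14 and Gtf2i (-0.74 to -0.46), where 28.9% of all features were. These contrasts share the DMSO, GW4869 or stimulated libraries with the ones above.

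**Figure D3:**
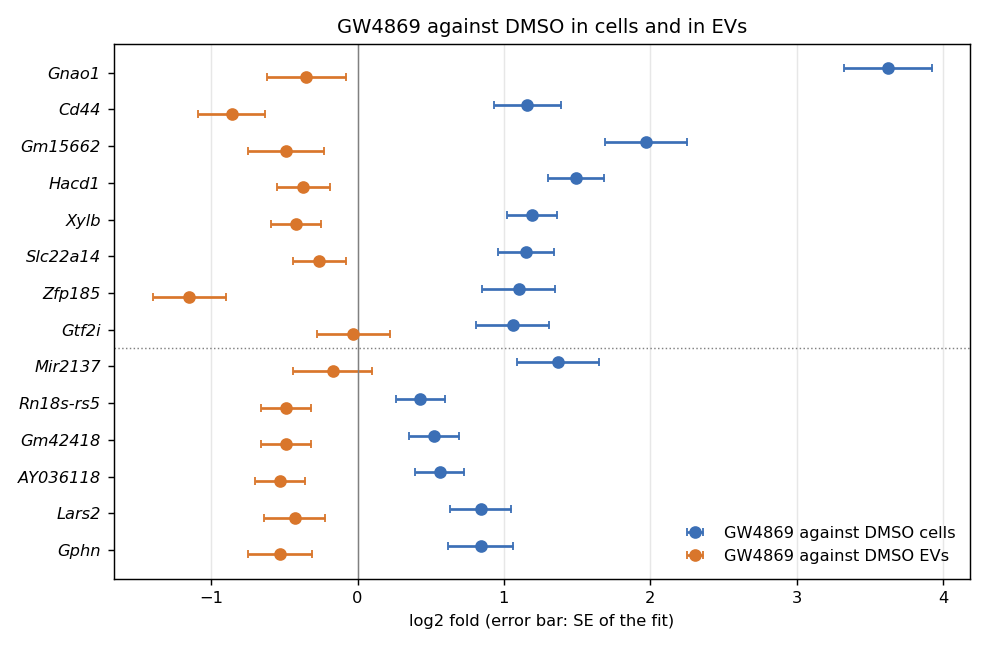
Log2 folds of GW4869 against DMSO in cells (blue) and EVs (orange), with SE of the fit, for the 8 features above the dotted line and for Mir2137 and 5 features that moved like them below it. With TMM scaling all 8 are above 0 in cells and below 0 in EVs (Gtf2i by less than its SE), and Gnao1 stands alone at 3.62 in cells.

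The resting and stimulated libraries were not part of those contrasts, and 5 comparisons were tested there with edgeR's quasi-likelihood test and Benjamini-Hochberg adjustment over 4408 features (a call is an adjusted p under 0.05). In resting cultures, fragments of 7 of the 8 features were higher in EVs than in cells and 0 were lower, where 18.9% of all features were called higher and 15.4% lower. Zfp185 rose by 1.89 ± 0.28 (log2, SE; adjusted p = 3.85e-06), Gm15662 by 1.73 ± 0.33 (adjusted p = 0.000112) and Cd44 by 1.62 ± 0.26 (adjusted p = 1.04e-05). Slc22a14, Xylb and Hacd1 rose by 1.58, 1.47 and 1.23, and Gtf2i by 0.78 ± 0.29 (adjusted p = 0.0382). The call of Gtf2i was lost without replicate 2 (0.73, adjusted p = 0.102) and without replicate 3 (0.68, adjusted p = 0.216) of every group, and with a mean of at least 50 counts (0.64, adjusted p = 0.0884). Gnao1 had -0.18 ± 0.32 (adjusted p = 0.72).

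In stimulated cultures the same EV to cell comparison called 1 of the 8 higher and 1 lower, where 27.7% of all features were called higher and 25.8% lower. Gtf2i was lower in EVs by -1 ± 0.25 (adjusted p = 0.00136), from 267 ± 66.7 to 134 ± 1.17 CPM (SD, n = 3). Cd44 was higher in EVs by 0.58 ± 0.23 (adjusted p = 0.0361), a call that was lost without replicate 1, 2 or 3 (adjusted p = 0.051, 0.157 and 0.0723). With library totals Gtf2i had -0.58 ± 0.28 (adjusted p = 0.0858). The rest had Gm15662 and Hacd1 at 0.37 each, Xylb at -0.15, Slc22a14 at -0.17, Zfp185 at -0.23 and Gnao1 at -0.24, and the last 4 changed sign with library totals (0.20 to 0.28). Library totals also called Gm15662 (0.81, adjusted p = 0.0153) and Hacd1 (0.82, adjusted p = 0.00121).

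Stimulated cells had more fragments of 7 of the 8 features than resting cells, where 23% of all features were called higher. Zfp185 rose by 3.81 ± 0.29 (14.1-fold, adjusted p = 3.37e-11), Slc22a14 by 3.75 ± 0.21, Xylb by 3.65 ± 0.20 (12.5-fold, adjusted p = 6.77e-14) and Gtf2i by 3.5 ± 0.29 (adjusted p = 1.71e-10). Cd44, whose protein marks activated T cells, rose by 3.06 ± 0.26 (8.37-fold, adjusted p = 3.56e-10), Gm15662 by 2.96 ± 0.32 and Hacd1 by 2.32 ± 0.21. The median of the 8 was 3.28 and that of all features -0.05. In EVs the same 7 features rose by 1.45 (Hacd1) to 2.03 (Cd44, adjusted p = 1.11e-07), where 28.9% of all features were called higher. Resting and stimulated cultures also differ in culture time and earlier treatment, which cannot be told apart from stimulation. In bulk libraries more cells of a kind and more RNA per cell cannot be told apart either. Gnao1 was not called in cells (0.16 ± 0.30, adjusted p = 0.716) or EVs (0.09 ± 0.30, adjusted p = 0.804). With library totals, which moved the median of all features by 0.82 in cells and 1.12 in EVs, it was called in both (0.98, adjusted p = 0.0186, and 1.23, adjusted p = 0.00231).

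**Figure D4:**
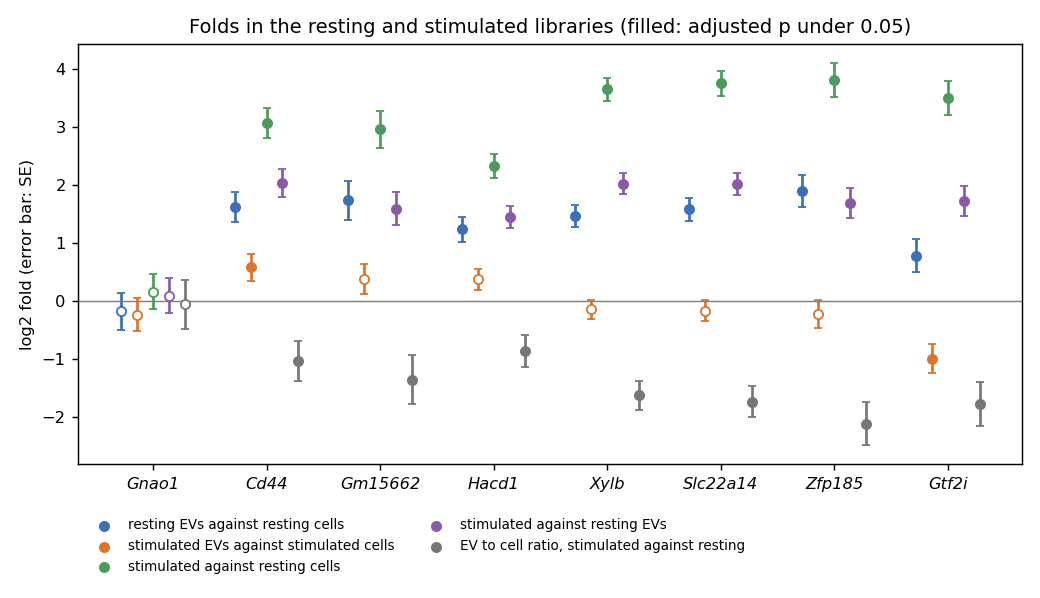
Log2 folds with SE of the 8 features in the 5 tested comparisons of resting and stimulated libraries, filled where the adjusted p was under 0.05. The rise in stimulated cells is between 2.32 and 3.81 for 7 features, and all 5 points of Gnao1 lie between -0.24 and 0.16 and are open (TMM scaling).

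The difference between these rises was tested as the change of the EV to cell ratio from resting to stimulated cultures. The ratio was lower in stimulated cultures for the same 7 features, where 20.7% of all features were called lower. Zfp185 fell by 2.12 ± 0.37 (adjusted p = 8e-05), Gtf2i by 1.78 ± 0.38, Slc22a14 by 1.74 ± 0.27 and Xylb by 1.63 ± 0.25 (adjusted p = 1.68e-05) on the log2 scale. Gm15662 had -1.36 ± 0.42 (adjusted p = 0.0131), Cd44 -1.04 ± 0.34 (adjusted p = 0.0202) and Hacd1 -0.87 ± 0.28 (adjusted p = 0.0173). These 3 calls were lost with library totals (adjusted p = 0.0572, 0.114 and 0.147). Without replicate 2 of every group they were lost too (adjusted p = 0.0808, 0.151 and 0.132). Hacd1 was also lost without replicate 1 (adjusted p = 0.111) and replicate 3 (adjusted p = 0.0507), Gm15662 without replicate 1 (adjusted p = 0.181) and Cd44 without replicate 3 (adjusted p = 0.0663). Gnao1 had -0.06 ± 0.42 (adjusted p = 0.928).

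Across the 4 kinds of culture, the EV to cell fold of Cd44 was 1.62 in resting, 0.58 in stimulated, 2.82 in DMSO and 0.79 in GW4869 cultures. Zfp185 went from 1.89 and -0.23 to 2.12 in DMSO and -0.13 in GW4869 cultures, and Xylb from 1.47 and -0.15 to 1.46 and -0.16. The DMSO fold of Cd44 was 2.44 ± 0.21 without DMSO EV replicate 1. Hacd1 had 1.23, 0.37, 2.08 and 0.22 in the same order, and Gm15662 1.73, 0.37, 2.24 and -0.22. Gtf2i had 0.78, -1, 0.5 and -0.58. Library totals raised the DMSO and GW4869 folds more than the resting ones, for example Xylb to 1.61, 0.28, 2.03 and 0.60. The differences between the 2 sets of cultures were not tested. Gnao1 differed, with -0.18, -0.24, 1.55 and -2.42. In DMSO cultures 7 of the 8 were higher in EVs without overlap, where 35.4% of all features were higher in that way. In GW4869 cultures Cd44 was higher without overlap, where 38.1% of all features were. Gnao1 and Xylb were lower without overlap there, where 32.8% of all features were, and Xylb had 0.60 with library totals.

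**Figure D5:**
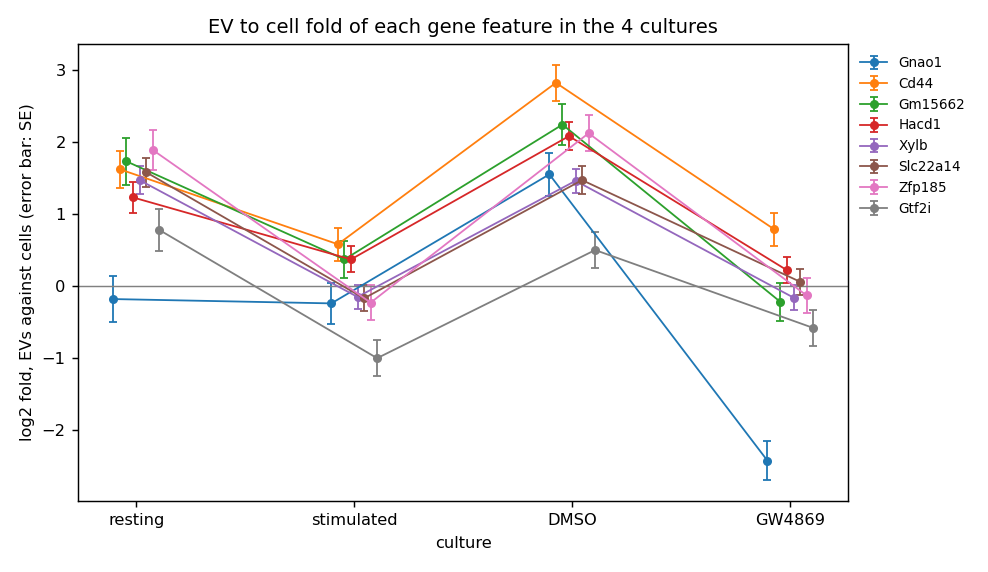
Log2 fold of EVs against cells with SE for each of the 8 features in resting, stimulated, DMSO and GW4869 cultures. With TMM scaling most lines are high in resting and DMSO cultures and nearer 0 in stimulated and GW4869 cultures. Gtf2i is at -1 in stimulated cultures, and Gnao1 ends lowest, at -2.42 in GW4869 cultures. With library totals the median of the 8 in GW4869 cultures was 0.61.

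The 7 features other than Gnao1 moved together over the 24 libraries, with Pearson r of log2 CPM from 0.704 to 0.995 between them (Xylb and Slc22a14 overlap in GENCODE and may share reads). Gnao1 had 0.310 to 0.515 with them. The features most like each one outside the overlaps were found in the same way. They were Kcnip1, Gphn and Sspn for Zfp185 (0.987 each), Gm26561 (0.984), Camk1d and Kcnip1 for Cd44, and Steap2 (0.978), Atp5o and Gm23935 for Xylb. For Slc22a14 they were Steap2, Gm23935 and Gm25911, for Gtf2i Dpysl3 (0.946), Pnck and Park7. Gm15662 and Hacd1 were most like each other (0.982), followed by Tmtc2 for both, then by Sspn for Gm15662 and Cd44 for Hacd1. No feature came close to Gnao1, whose best were Shank2 (0.628), Gm28872 and Rnu11. The points share libraries, scaling and the contrast of resting with stimulated cultures, and no p is given.

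An rRNA feature and Lars2 moved with 7 of the 8 over the 24 libraries. Rn18s-rs5, listed as rRNA, had r of 0.944 with Cd44, 0.942 with Zfp185 and Slc22a14, 0.756 with Gtf2i and 0.228 with Gnao1. Lars2, the gene of the mitochondrial leucyl-tRNA synthetase, had 0.982 with Zfp185, 0.956 with Cd44 and 0.383 with Gnao1. Rn18s-rs5 stood at 18200 ± 1440 CPM in DMSO cells, 24400 ± 3160 in GW4869 cells, 49900 ± 9590 in DMSO EVs and 35600 ± 4340 in GW4869 EVs (SD, n = 3). Its log2 folds of GW4869 against DMSO were 0.43 ± 0.17 in cells and -0.49 ± 0.17 in EVs, and those of Lars2 were 0.84 ± 0.21 and -0.43 ± 0.21. Stimulated cells exceeded resting cells by 3.12 for Rn18s-rs5 and 4.15 for Lars2, so both had the directions of the 7 in these 3 contrasts. Gm26917, a lincRNA feature looked at in the same way, did not move with them over the libraries, with r of -0.153 with Cd44, -0.125 with Hacd1, 0.083 with Zfp185 and 0.389 with Gtf2i. Its log2 fold of stimulated EVs against stimulated cells was -4.41 ± 0.20, from 4000 ± 314 to 188 ± 21.3 CPM. In the 3 contrasts above, Gm26917 still had the directions of the 7. Its log2 folds of GW4869 against DMSO were 0.38 ± 0.17 in cells and -0.73 ± 0.18 in EVs. For stimulated against resting cells it had 3.07 ± 0.19. Rn18s-rs5 and Lars2 were looked at because of their likeness to the members, and their part in the members' counts was not tested.

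Other genes of the members' pathways were counted from lists of related genes, of which 27 stood in the table. The lists were chosen with earlier results of these data known. For GW4869 against DMSO the calls of list genes are a description and not a test. They were not rerun with library totals or without DMSO EV replicate 1. In GW4869 against DMSO cells 1 of these 27 was called higher and 0 lower, where 2.88% of all features were called higher and 0.113% lower. It was Limd1, of the LIM domain list (1 of 4 in the table, log2 fold 0.97 ± 0.26). In GW4869 against DMSO EVs 4 were higher and 0 lower, where 7.89% of all features were called higher and 9.69% lower. Rgs7 (1.31 ± 0.26) and Rgs6 (1.05 ± 0.29), regulators that speed the shutdown of Go and Gi proteins, were 2 of the 10 genes of the G protein list. Elovl6, of fatty acid elongation, had 1.16 ± 0.35 and was 1 of 2 in its list. Cers6, a ceramide synthase, had 0.70 ± 0.25, 1 of 2 in the list of sphingomyelinase and ceramide genes.

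In stimulated against resting cells 8 of the 27 were higher and 2 lower (median 0.22), where 23% and 23.1% of all features were. The G protein list had 5 of 10 higher and 0 lower, with a median of 1.06, among them Rgs3 (1.90 ± 0.35, adjusted p = 5.32e-05), Gnb2 (1.63 ± 0.44) and Gnaq (1.48 ± 0.34, adjusted p = 0.000833), while Gnao1 itself was not called. In EVs, where 28.9% of all features were called higher and 25.2% lower, 6 of the 10 were higher and 0 lower (median 1.07), led by Rgs7 at 2.39 ± 0.29 (adjusted p = 1.34e-07). Limd1 rose by 3.19 ± 0.31 in stimulated cells, the only one of the 4 LIM domain genes called there. In EVs 0 of these 4 were called higher and 2 lower, Lmo7 (-0.98 ± 0.40, adjusted p = 0.0425) and Ablim1 (-0.87 ± 0.30, adjusted p = 0.0152). Gtf2a1, a subunit of TFIIA, rose by 1.46 ± 0.34 in cells as 1 of 3 genes of the Gtf2 list. Of the 3 genes of the hyaluronan and adhesion list, 0 were called in cells, and in EVs Ank3 rose by 1.58 ± 0.33 and Msn, the gene of moesin, which links CD44 to actin, fell by 1.85 ± 0.35 (adjusted p = 8.52e-05). Elovl5 fell by 1.64 ± 0.31 in EVs as 1 of 2 elongation genes. In cells Hgs, the 1 EV formation gene in the table, fell by 1.06 ± 0.34 and Cers6 by 0.82 ± 0.24, while Slc22a22 rose by 1.74 ± 0.47. Sgms1, of the same list as Cers6, rose by 1.45 ± 0.36 in EVs (adjusted p = 0.00131). In stimulated EVs against stimulated cells 8 of the 27 were called higher and 3 lower, where 27.7% and 25.8% of all features were. In resting EVs against resting cells 5 were higher and 1 lower, where 18.9% and 15.4% of all features were. Tkt, the transketolase gene and the 1 pentose pathway gene in the table, was called only in resting EVs against cells (1.43 ± 0.34, adjusted p = 0.00114) among the 7 comparisons counted for the lists. These are folds of fragments inside genes, as for the 8.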

How the data were processed

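Counts were deposited by the authors as 1 file per library, with the name, biotype and whole-number read count of each annotated feature, per the file headers. The tool named in the submitters' processing notes is Bowtie, with GRCm38 and mm10 as builds; versions, the counting tool and the handling of reads with several alignments or on either strand are not given in the sources used here. Each file had 4441 lines, of which 33 repeated another in full and were dropped, leaving 4408 features. The smallest count was 4.

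The counts were fitted with edgeR 4.0.16 (R 4.3.3): TMM factors (0.563 to 1.765), filterByExpr by group with a minimum count of 10, which kept all 4408 features, and 1 quasi-likelihood model of the 8 groups and 24 libraries (limma 3.58.1 as its base). Folds are log2 with SE from that fit. CPM are from the deposited counts, and log2 CPM used a prior count of 2. The members, and the lists of related genes, were chosen with earlier results of these data known. The contrasts of GW4869 with stimulated cultures, and the rRNA-linked features, were added after seeing the data. The rule for named genes took the 8 members, for each the 3 features most alike by Pearson r, overlapping features, and called genes of the lists. The fit was also run on counts simulated from its own model for stimulated against resting cells. Such counts cannot show where that model misfits the data. In none of the 12 pairs of groups compared did all 3 same-numbered libraries deviate together (r over 0.1), so replicate numbers were not used to pair libraries. Alternatives were RLE factors, library totals, no filter, a mean of at least 50 counts (2334 features), DESeq2 1.42.0, the 12 resting and stimulated libraries alone, each replicate left out, and a replicate block. Coordinates are from GENCODE M21, for 7 of the 8 names.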

Additional observations from a re-analysis of the deposited data

Results flagged for a closer look

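For 7 of the 8 features, stimulated and resting cultures had different EV to cell ratios by a test of the difference itself (edgeR, adjusted over all features), where 20.7% of all features were called lower. The log2 changes were -2.12 for Zfp185, -1.78 for Gtf2i, -1.74 for Slc22a14, -1.63 for Xylb, -1.36 for Gm15662, -1.04 for Cd44 and -0.87 for Hacd1. The calls of Gm15662, Cd44 and Hacd1 were lost with library totals (adjusted p = 0.0572, 0.114 and 0.147) and without replicate 2 (adjusted p = 0.0808, 0.151 and 0.132). Rn18s-rs5, the rRNA feature, had -1.64 in the same contrast, and its part in the members' change was not tested.

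For 4 features all GW4869 libraries lay below the DMSO libraries in EVs and above them in cells, as for 2.43% of all features. The log2 folds of the EV to cell ratio were -2.24 for Zfp185, -1.86 for Hacd1, -1.61 for Xylb and -1.41 for Slc22a14. The difference was not tested, because these contrasts chose the features. With library totals in place of TMM the EV folds were -0.85 for Zfp185, -0.09 for Xylb, -0.07 for Hacd1 and 0.06 for Slc22a14. Xylb and Slc22a14 may share reads and are not separate evidence.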

How the results depend on the processing

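The rise of 7 features in stimulated cells and in stimulated EVs kept its call in every alternative run. In stimulated EVs against cells the 2 members called became 1 with RLE factors, with DESeq2, with a mean of at least 50 counts and without each replicate (1 to 1). In the ratio of stimulated to resting cultures the 7 became 4 with library totals and 4 to 5 without a replicate, and the features called, 1580 in all, became 939 to 1175. With a mean of at least 50 counts fewer features were tested, and 954, 1521 and 1571 were called in resting EVs against cells, stimulated EVs against cells and stimulated against resting EVs, against 1513, 2359 and 2386. Library totals moved the median fold of the members to 2.41 in DMSO EVs against cells (1.82 with TMM), to 0.61 in GW4869 EVs against cells (-0.14) and to 0.57 in GW4869 against stimulated EVs (0.26). Sign changes with library totals were 0.20 (Gnao1), 0.28 (Xylb), 0.26 (Slc22a14) and 0.21 (Zfp185) in stimulated EVs against cells, 0.25 (Gnao1) in the ratio of stimulated to resting cultures and 0.06 (Slc22a14) and 0.26 (Gtf2i) in GW4869 against DMSO EVs. In GW4869 EVs against cells they were 0.54 (Gm15662), 0.60 (Xylb), 0.62 (Zfp185) and 0.19 (Gtf2i, from -0.58 ± 0.25 with TMM), and -0.08 for Slc22a14 with RLE factors. Gnao1 changed sign at values that were not called, with -0.06 in stimulated against resting EVs (RLE and DESeq2) and 0.06 in the ratio with a mean of at least 50 counts. Without a replicate Gnao1 ranged from -0.45 to 0.12 (EVs against cells, resting) and from -0.43 to 0.03 (EVs against cells, stimulated). It ranged from -0.15 to 0.33 between stimulated and resting cells, from -0.22 to 0.33 between their EVs and from -0.56 to 0.48 in the ratio. The causes were not tested. The replicate block changed no call of a member and gave 1494, 2370, 2035, 2372 and 1548 features called in the 5 tested comparisons, and 13 of 24 libraries deviated most like libraries of their own number. In 3 of 28 pairs of groups all 3 same-numbered correlations were over 0.1 (resting cells with DMSO cells, resting EVs with GW4869 cells, stimulated cells with DMSO EVs), and in 0 of the 12 pairs that were compared. Counts of Gnao1, from 12 to 67 outside GW4869 cells and DMSO or GW4869 EVs, limit its precision.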
